A study of Mus musculus with 12 samples.

Results

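The step from naive mouse embryonic stem cells (mESCs) to epiblast-like cells (EpiLCs) was described in cells carrying wild-type (WT) EPOP, from 3 EpiLC libraries and 3 mESC libraries. These are 6 of the 12 RNA-seq libraries of the series, chosen by genotype and state alone, and 13879 of 19630 named genes passed the filter on low counts. The cells come from 1 line, E14, in which WT EPOP was re-expressed, and the sources used here do not name the promoter that drives it. EpiLCs were made on fibronectin at 16.7 µg/ml with activin A at 20 ng/ml, bFGF at 12 ng/ml and 1% knockout serum replacement. The mESCs grew on 0.2% gelatin with a MEK inhibitor at 1 µM, a GSK3 inhibitor at 3 µM and LIF. The other 6 libraries are EpiLCs and mESCs grown the same ways but re-expressing a mutant EPOP, and they enter here through the shared estimate of spread and 1 comparison of the steps.

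Naive mESCs resemble the epiblast of the blastocyst before implantation. In 2i/LIF medium the MEK inhibitor blocks ERK signalling, the GSK3 inhibitor stabilises β-catenin and LIF activates STAT3, which together maintain a circuit of transcription factors around Oct4, Sox2, Nanog, Esrrb and Klf4. When these are withdrawn and activin and FGF are added, the cells move to a formative state like the early post-implantation epiblast, in which de novo DNA methylation is high and the cells can respond to signals for the germ layers and the germline. EPOP binds PRC2, the Polycomb complex that places methyl groups on histone H3 at silent developmental genes.

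Library totals over named genes lay between 7714164 and 10237369 counts. The first principal component of these libraries, with 86.3% of the variance, separated EpiLCs from mESCs, and the second took 3.84%. Nothing in the labels says that the libraries of a group are from separate cultures, and the spread that p-values rest on may therefore be technical. In these bulk samples, fewer cells of a type and less RNA per cell cannot be told apart.

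Most genes changed, and most of them changed little. Of the 13879 genes, 8697 (62.7%) were called, which means an adjusted p under 0.05 in the quasi-likelihood test of edgeR, and 4397 (31.7%) were higher in EpiLCs and 4300 (31.0%) lower. The EpiLC and mESC libraries did not overlap in CPM for 65.1% of genes. Calls of at least 2-fold numbered 1604 higher (11.6%) and 1325 lower (9.55%), and calls of at least 4-fold numbered 706 higher (5.09%) and 505 lower (3.64%). A change under 2-fold was found for 5768 called genes, 66.3% of the calls. The median log2 fold change (EpiLC over mESC) of all genes tested was 0.01, and levels are given as CPM, read counts scaled to the effective library size. The counts of called members below are read against these shares.

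Of 19 tested naive transcription factors, 15 fell in EpiLCs, 3 rose and 1 was not called, and the Oct4 gene fell by less than 2-fold. Klf4, a Krüppel-like factor of the naive circuit, had 14.8, 12.2 and 12.8 CPM in EpiLCs, against 373.2, 404.5 and 380.1 CPM in mESCs. The groups lay far apart, and the log2 fold change was -4.86 ± 0.07 (SE; edgeR adjusted p = 6.54e-101). Esrrb, an orphan nuclear receptor that sustains self-renewal, had 90.0, 93.9 and 88.1 CPM in EpiLCs, against 989.6, 931.3 and 903.5 CPM in mESCs, a 10.4-fold fall. Tfcp2l1, a factor downstream of LIF, had 37.2, 40.7 and 34.3 CPM in EpiLCs, against 1061.2, 1058.6 and 959.5 CPM in mESCs, which is 27.4-fold lower. Each of these genes kept a measurable level in all EpiLC libraries. Prdm14, which restrains FGF signalling and DNA methylation in naive cells, was near the limit of counting in EpiLCs. It had 0.557, 1.23 and 0.352 CPM there, against 48.3, 57.8 and 51.5 CPM in mESCs (log2 fold change -6.14 ± 0.19, SE; edgeR adjusted p = 4.95e-60).

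**Figure D1:**
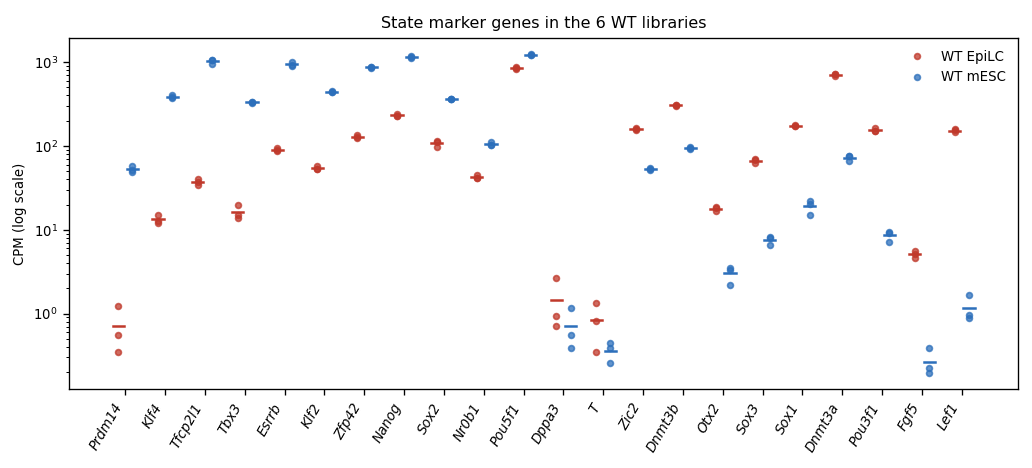
CPM on a log scale (y) of the 22 state marker genes (x), ordered by log2 fold change, with 1 point per library and a bar at the mean of each group of 3; EpiLCs stand left of mESCs for each gene. The naive factors at the left are lower in EpiLCs, and the epiblast genes and Sox1 at the right are higher. The points of the groups overlap for Dppa3 and T.

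Of 22 state markers, 9 rose, 11 fell and 2 did not pass the test. The fallen markers include Nanog, a central naive factor, with 227.0, 230.7 and 243.2 CPM in EpiLCs, against 1184.7, 1121.4 and 1161.6 CPM in mESCs. Zfp42, also called Rex1 and widely used as a naive reporter gene, had 134.7, 127.2 and 125.5 CPM in EpiLCs, against 855.0, 865.1 and 880.5 CPM in mESCs. The groups of neither gene overlapped. Pou5f1, the gene for Oct4, fell by 0.54 on the log2 scale, with 821.8, 841.9 and 880.7 CPM in EpiLCs and 1200.7, 1230.6 and 1263.7 CPM in mESCs. Sox2, the partner of Oct4, fell further, to 110.0, 97.8 and 113.2 CPM in EpiLCs, against 361.9, 361.1 and 365.9 CPM in mESCs. Thus the fall of Pou5f1 was 1.45-fold and that of Sox2 3.39-fold, each with groups that do not overlap. Dppa3, a maternal factor that varies from cell to cell in naive cultures grown with serum, was low in every library, with 2.68, 0.715 and 0.94 CPM in EpiLCs and 0.554, 1.17 and 0.385 CPM in mESCs. T, the gene for Brachyury in the primitive streak, was also at or below 1.34 CPM in every library (edgeR adjusted p = 0.125). Both had overlapping groups.

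The list of naive pluripotency transcription factors had a median log2 fold change of -2.75, against 0.01 over all genes. Besides those above, Nr5a2, a nuclear receptor that can drive Pou5f1, had 1.90, 2.25 and 2.11 CPM in EpiLCs, against 82.5, 85.9 and 79.1 CPM in mESCs. Tbx3, a T-box factor, had 19.7, 13.7 and 15.2 CPM in EpiLCs, against 330.6, 338.5 and 328.0 CPM in mESCs, a 20.5-fold fall. The smallest called falls of this list were those of Sall4 (log2 fold change -0.87), Klf5 (-1.29) and Nr0b1 (-1.31). The 3 members that rose were Gbx2, Zfp281 and Tfe3. Gbx2, a homeobox gene downstream of LIF that is also active in the early epiblast, had 119.9, 121.4 and 116.9 CPM in EpiLCs, against 25, 23.9 and 26.5 CPM in mESCs, which is 2.25 ± 0.07 on the log2 scale (SE; edgeR adjusted p = 5.39e-61). Zfp281, a zinc-finger factor known to promote exit from the naive state, and Tfe3, a bHLH factor whose exclusion from the nucleus accompanies that exit, rose by less, with log2 fold changes of 0.62 and 0.58. Ncoa3, a coactivator of Esrrb, was the uncalled member, at 233.1 ± 5.8 CPM in EpiLCs and 229.4 ± 8.0 CPM in mESCs (SD, n = 3 each).

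Genes of the early embryo split into a group that fell strongly and a few that did not. Of 16 tested Dppa and other early-embryo genes, 12 fell and 3 rose, with a median log2 fold change of -1.40. Tdh, the threonine dehydrogenase that mouse naive cells depend on, had 11.1, 10.0 and 11 CPM in EpiLCs, against 590.1, 580.9 and 583.9 CPM in mESCs, a 54.5-fold fall. Fbxo15, an early marker of reprogramming, had 49.2, 56.2 and 48.0 CPM in EpiLCs, against 291.7, 317.9 and 318.3 CPM in mESCs. Khdc3, an oocyte and preimplantation gene, fell 14.5-fold. Dppa2 and Dppa4, partner proteins that prime developmental promoters, moved the other way, with log2 fold changes of 0.54 and 0.49. Dppa5a fell by 0.28 on the log2 scale and was still at 770.6, 832.8 and 835.0 CPM in EpiLCs, against 919.2, 1005.0 and 1038.1 CPM in mESCs.

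The list of 14 core pluripotency factors, which both states express, was divided, with 6 higher, 7 lower and a median log2 fold change of -0.11. Lin28a, an RNA-binding protein that blocks let-7 maturation, had 396.2, 399.0 and 359.7 CPM in EpiLCs, against 60.6, 51.3 and 54.6 CPM in mESCs, a 6.94-fold rise (log2 fold change 2.80 ± 0.05, SE; edgeR adjusted p = 3.09e-86). Its paralogue Lin28b rose 3.71-fold. Utf1, a chromatin-bound factor of pluripotent cells, had 399.1, 417.0 and 432.9 CPM in EpiLCs, against 107.6, 112.6 and 106.2 CPM in mESCs. For Lin28a, Lin28b and Utf1 the EpiLC libraries were all above the mESC libraries. Tdgf1, the Nodal co-receptor Cripto, and Zfp296 fell, with log2 fold changes of -0.78 and -1.92.

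Formative and primed epiblast genes rose as a group. Of 29 tested, 24 rose, 22 of them by at least 2-fold, and 4 fell, with a median log2 fold change of 2.56. Pou3f1, the POU factor Oct6, had 161.5, 151.4 and 151.2 CPM in EpiLCs, against 7.09, 9.32 and 9.25 CPM in mESCs (log2 fold change 4.17 ± 0.09, SE; edgeR adjusted p = 7.47e-77). Otx2, a homeobox factor that redirects Oct4 to epiblast enhancers, had 16.9, 18 and 18.8 CPM in EpiLCs, against 2.22, 3.5 and 3.34 CPM in mESCs. Its exons overlap those of Otx2os1. Fgf5, the classical marker of the post-implantation epiblast, was low in both states, with 5.13, 4.60 and 5.64 CPM in EpiLCs, against 0.222, 0.194 and 0.385 CPM in mESCs. Its 19.2-fold rise rests on few counts in mESCs, though the groups were well apart.

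Other members of the formative list were higher at both low and high levels. Tcf15, a bHLH factor linked to epiblast priming, had 167.1, 173.0 and 172.8 CPM in EpiLCs, against 26.7, 25.1 and 25.7 CPM in mESCs. Enpp3, an ectonucleotidase, rose 28.9-fold, and Grhl2, a factor that opens epithelial enhancers in the epiblast, rose 13.7-fold. Sall2, a zinc-finger factor, had 80.4, 81.5 and 74.5 CPM in EpiLCs, against 11.5, 10.1 and 11.7 CPM in mESCs. The 4 members that fell were Nkx1-2, Foxd3, Slc7a3 and Etv5. Nkx1-2, a homeobox gene of caudal progenitors, had 1.45, 3.37 and 3.41 CPM in EpiLCs, against 10.6, 9.81 and 9.76 CPM in mESCs. Foxd3, a forkhead factor of pluripotent cells, fell by 0.85 on the log2 scale.

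The de novo DNA methylation genes Dnmt3l, Dnmt3a and Dnmt3b rose in EpiLCs, and the maintenance gene Dnmt1 fell. Dnmt3l, the catalytically inactive partner of the de novo enzymes, had 226.4, 229.2 and 235.6 CPM in EpiLCs, against 10.9, 9.91 and 10.7 CPM in mESCs, a 22-fold rise. Dnmt3a, a de novo methyltransferase, had 724.4, 713.3 and 674.5 CPM in EpiLCs, against 66.7, 76.5 and 75 CPM in mESCs, a 9.68-fold rise. Dnmt3b, the other such enzyme, had 310.5, 307.3 and 302.5 CPM in EpiLCs, against 92.0, 93.6 and 98.3 CPM in mESCs, a 3.24-fold rise. In all 3 genes the libraries of a state agreed within a narrow range and the states lay apart (log2 fold changes 4.46, 3.27 and 1.70; edgeR adjusted p at most 3.39e-65). Exons of Dnmt3l overlap those of Aire and exons of Dnmt3a those of Dnmt3aos. Dnmt1, which copies methylation after replication, fell by 0.31 on the log2 scale, and Uhrf1, which recruits it to replicated DNA, fell by 0.58.

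Per length, the order of these family members differed between the states. On the deposited TPM scale Dnmt3l averaged 186.9 ± 2.7 TPM in EpiLCs and 8.06 ± 0.40 TPM in mESCs (SD, n = 3 each). Dnmt3a averaged 153.3 ± 6.6 TPM in EpiLCs and 15 ± 1.0 TPM in mESCs, and Dnmt3b averaged 153.5 ± 3.1 TPM in EpiLCs and 44.9 ± 1.0 TPM in mESCs. The order in mESCs was thus Dnmt3b, Dnmt3a, Dnmt3l, and in EpiLCs Dnmt3l led while Dnmt3a and Dnmt3b differed by less than their spread. Among the enzymes that oxidise 5-methylcytosine, Tet1 was not called, at 634.2 ± 42.0 CPM in EpiLCs and 670.7 ± 29 CPM in mESCs (edgeR adjusted p = 0.07). Tet2 fell by 0.60 on the log2 scale and Tet3 rose 2.10-fold. The whole list of 19 DNA methylation genes had 10 higher and 5 lower, with a median log2 fold change of 0.29. Its other members higher by at least 2-fold were Gadd45a and Gadd45g, stress proteins also studied in demethylation, with log2 fold changes of 2.02 and 2.68.

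Promoter windows are shown for a pair that rose, Dnmt3l and Dnmt3a, and a pair that fell, Nanog and Klf4. Each pair moved together while the windows shown differ in CpG content. The source holds 3 start sites for Dnmt3l, 3 for Dnmt3a, 2 for Nanog and 1 for Klf4, and 1 window is shown per gene. Which start these cells use was not tested. The sequences are from RefSeq, build GRCm38.p6, from 250 bases before to 50 after a start site, 5′ to 3′ on the gene's strand, with each CpG in capitals. They lie at chr10:78042037-78042336 on the plus strand for Dnmt3l, chr12:3806730-3807029 on the plus strand for Dnmt3a, chr6:122707239-122707538 on the plus strand for Nanog and chr4:55532426-55532725 on the minus strand for Klf4.
Dnmt3l: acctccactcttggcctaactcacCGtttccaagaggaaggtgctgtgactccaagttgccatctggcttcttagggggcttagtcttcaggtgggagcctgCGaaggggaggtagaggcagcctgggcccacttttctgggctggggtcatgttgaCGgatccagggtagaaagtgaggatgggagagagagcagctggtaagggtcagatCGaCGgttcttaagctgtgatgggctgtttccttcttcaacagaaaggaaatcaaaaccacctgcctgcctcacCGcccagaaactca
Dnmt3a: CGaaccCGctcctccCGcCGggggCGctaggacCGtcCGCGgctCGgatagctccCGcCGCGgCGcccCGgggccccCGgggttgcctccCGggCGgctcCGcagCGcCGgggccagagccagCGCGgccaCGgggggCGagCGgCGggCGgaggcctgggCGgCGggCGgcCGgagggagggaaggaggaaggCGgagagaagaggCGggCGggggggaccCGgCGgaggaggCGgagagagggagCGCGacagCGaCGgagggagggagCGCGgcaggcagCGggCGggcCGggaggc
Nanog: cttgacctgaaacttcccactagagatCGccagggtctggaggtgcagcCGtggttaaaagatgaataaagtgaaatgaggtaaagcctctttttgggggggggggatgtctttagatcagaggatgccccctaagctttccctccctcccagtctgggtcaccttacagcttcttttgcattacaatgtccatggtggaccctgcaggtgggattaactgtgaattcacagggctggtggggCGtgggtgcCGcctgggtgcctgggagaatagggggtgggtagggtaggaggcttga
Klf4: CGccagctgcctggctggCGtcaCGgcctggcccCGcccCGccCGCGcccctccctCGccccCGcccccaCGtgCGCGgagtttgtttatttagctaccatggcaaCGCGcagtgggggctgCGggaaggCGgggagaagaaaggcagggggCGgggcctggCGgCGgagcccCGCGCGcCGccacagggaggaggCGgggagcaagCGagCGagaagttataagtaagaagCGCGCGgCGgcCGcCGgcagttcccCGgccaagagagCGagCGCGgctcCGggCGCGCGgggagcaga
The window of Dnmt3l holds 6 CpGs and that of Dnmt3a 46, and the window of Nanog holds 4 and that of Klf4 40, against a median of 7 over the 32851 windows of the same length in the table. Motifs were searched on both strands. The letters ATGCAAA, the core of an octamer site, are in the Nanog window and in 4.63% of all windows. CACGTG is in the Klf4 window and in 7.15% of all windows, and GGGCGG is in the windows of Klf4, Dnmt3l and Dnmt3a and in 35.7% of all windows. TATAAA and AAGGTCA were searched too, are in 13.6% and 4.72% of all windows, and are not letters of these 4 windows. Only 76.9% of the genes tested had a promoter in the table, under the 80% needed, so a comparison of CpG content or motifs between risen and fallen genes is void and no share is given.

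FGF genes and ERK feedback genes rose more often than they fell, while the immediate-early genes Egr1, Egr2 and Fos fell. Of 18 tested FGF ligands, receptors and binding proteins, 10 rose and 5 fell. Fgf15 had 13, 12.1 and 12.7 CPM in EpiLCs, against 0.443, 1.07 and 1.41 CPM in mESCs. The receptor Fgfr2 had 29.9, 31.3 and 29 CPM in EpiLCs, against 2.66, 2.33 and 1.28 CPM in mESCs, a 14.4-fold rise, though its exons overlap those of Ctbp2. The main receptor of the epiblast, Fgfr1, rose 1.70-fold. Fgf4, the ligand that naive cells make themselves, fell by only 0.20 on the log2 scale, to 192.1, 174.1 and 189.4 CPM in EpiLCs, against 209.7, 210.6 and 216.8 CPM in mESCs. Fgf10 and Fgf17 were ligands that fell, with log2 fold changes of -3.78 and -2.13.

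Of 33 tested ERK response and feedback genes, 19 rose and 10 fell, with a median log2 fold change of 0.60. Dusp4, a nuclear phosphatase that inactivates ERK, had 261.5, 247.4 and 245.6 CPM in EpiLCs, against 4.88, 4.57 and 7.45 CPM in mESCs (log2 fold change 5.51 ± 0.09, SE; edgeR adjusted p = 1.52e-93). Its cytoplasmic counterpart Dusp6 had 219.6, 228.3 and 240.3 CPM in EpiLCs, against 23.3, 23.8 and 26.1 CPM in mESCs. The Sprouty and Spred inhibitors, which damp receptor signalling to ERK, rose in all 6 tested members, from Spry4 at a log2 fold change of 2.96 down to Spred2 at 0.45. The growth regulator Myc rose 7.77-fold. In the other direction, Egr1, an immediate-early zinc-finger gene, had 31.4, 30.4 and 35.7 CPM in EpiLCs, against 571.2, 598.2 and 626.6 CPM in mESCs, an 18.4-fold fall. Fos, which forms AP-1 with Jun, had 7.25, 12.1 and 10.5 CPM in EpiLCs, against 52.5, 53.4 and 56.3 CPM in mESCs. Egr2 fell from a low level, with which is -3.44 ± 0.56 on the log2 scale (SE; edgeR adjusted p = 3.4e-08). So members of this list described by the same pathway were on opposite sides, each with groups that do not overlap.

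**Figure D2:**
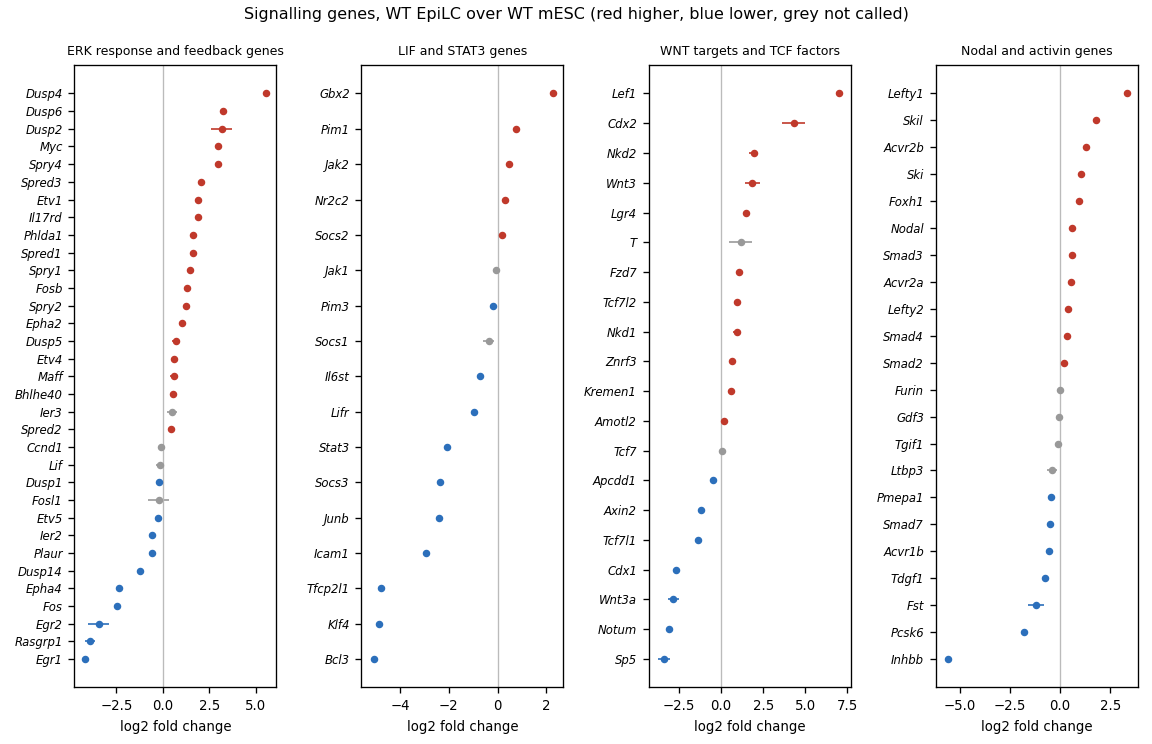
Log2 fold change, EpiLC over mESC (x), of tested genes (y) in 4 signalling lists, with bars of 1 SE; red genes were called higher in EpiLCs, blue lower and grey not called. Dusp4, Gbx2, Lef1 and Lefty1 head their panels, and Egr1, Bcl3, Sp5 and Inhbb stand at the foot.

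Genes of the LIF and STAT3 pathway fell for the most part. Of 17 tested, 10 fell and 5 rose, with a median log2 fold change of -0.73. Bcl3, an IκB-family coactivator induced by STAT3, had 2.45, 1.84 and 4.23 CPM in EpiLCs, against 93.5, 99.1 and 89.0 CPM in mESCs, a 33.1-fold fall. Socs3, the feedback inhibitor of LIF receptors, had 13.5, 12.9 and 11 CPM in EpiLCs, against 64.2, 66.5 and 61.9 CPM in mESCs. Stat3 itself, which also is its own target, had 32.8, 44.6 and 39.3 CPM in EpiLCs, against 170.4, 168.3 and 152.1 CPM in mESCs, and its exons overlap those of Stat5a. The receptor chains Lifr and Il6st fell by less, with log2 fold changes of -0.98 and -0.73. Pim1, a kinase induced by STAT3, and Jak2 rose, with log2 fold changes of 0.74 and 0.48, and Gbx2 is described above. Tfcp2l1 and Klf4 are in this list as well as in that of naive factors.

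WNT genes changed in both directions, with Lef1 higher and Tcf7l1 lower. Of 20 tested, 11 rose and 7 fell, with a median log2 fold change of 0.61. Lef1, a TCF factor that activates with β-catenin, had 144.8, 152.9 and 157.4 CPM in EpiLCs, against 0.887, 0.971 and 1.67 CPM in mESCs (log2 fold change 7.03 ± 0.12, SE; edgeR adjusted p = 3.32e-89). Tcf7l1, the TCF factor that represses naive genes, had 76.8, 71.9 and 66.2 CPM in EpiLCs, against 188.6, 188.8 and 181.9 CPM in mESCs. Per length, Lef1 averaged 89.1 ± 3.1 TPM in EpiLCs and 0.653 ± 0.23 TPM in mESCs, and Tcf7l1 averaged 53.9 ± 4.4 TPM in EpiLCs and 132.8 ± 4.2 TPM in mESCs (SD, n = 3 each). Tcf7 was not called, at 66.8 ± 5.7 CPM in EpiLCs and 65.2 ± 4.2 CPM in mESCs. Among the other risen members, Nkd2, a feedback inhibitor of WNT, rose 3.89-fold, Lgr4, an R-spondin receptor, 2.82-fold, and Fzd7, a WNT receptor, 2.11-fold. Among the fallen members were other target genes. Axin2, a feedback scaffold, had 15.9, 13.5 and 16.7 CPM in EpiLCs, against 40.2, 34.8 and 30.6 CPM in mESCs. Notum, a secreted enzyme that inactivates WNT proteins, fell 8.68-fold, Cdx1 6.42-fold and Sp5 10.5-fold. Cdx2, a paralogue of Cdx1, rose at a low level, with 3.12, 1.84 and 2.47 CPM in EpiLCs, against 0.222, 0 and 0.128 CPM in mESCs.

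Nodal and activin genes rose more often than they fell, and Lefty1 had the largest rise. Of 23 tested, 12 rose and 7 fell, with a median log2 fold change of 0.21. Lefty1, a secreted inhibitor of Nodal, had 631.6, 640.7 and 659.7 CPM in EpiLCs, against 55.0, 65.2 and 69.1 CPM in mESCs, a 10.2-fold rise, while its paralogue Lefty2 rose 1.31-fold. Per length, Lefty1 averaged 869.4 ± 14 TPM in EpiLCs and 80.7 ± 8.6 TPM in mESCs, and Lefty2 averaged 481.2 ± 16.0 TPM in EpiLCs and 348.3 ± 9.9 TPM in mESCs (SD, n = 3 each), so the order of the paralogues differed between the states. Nodal rose 1.52-fold. Inhbb, which encodes an activin subunit, had 1.11, 1.12 and 1.06 CPM in EpiLCs, against 53.3, 56.2 and 50.2 CPM in mESCs, a 48.5-fold fall in cells that receive activin in the medium. In the BMP list, 8 of 18 tested genes fell and 5 rose, with a median of -0.18. Id3, an inhibitor of bHLH factors and a BMP target, had 0.78, 1.94 and 1.06 CPM in EpiLCs, against 24.3, 23.0 and 25.3 CPM in mESCs. Bmp4 fell 7.33-fold, although its exons overlap those of Gm15217, Msx2 fell 20.0-fold, and Bmp8b rose 8.63-fold at under 10 CPM, with exons that overlap those of Ppie.

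Called PRC2 subunits changed by less than 2-fold, apart from Epop itself. Epop, listed under E130012A19Rik, had 209.8, 205.1 and 211.5 CPM in EpiLCs, against 463.2, 470.9 and 484.6 CPM in mESCs (log2 fold change -1.18 ± 0.04, SE; edgeR adjusted p = 2.89e-54). The row does not separate the re-expressed gene from any transcript of the original locus. Of 14 tested PRC2 subunits, 8 fell and 3 rose, with a median log2 fold change of -0.12, and Epop was the only called member past 2-fold. Eed, the subunit that reads the PRC2 mark, fell 1.86-fold, and Mtf2, which brings the PRC2.1 form to CpG islands, fell 1.53-fold. Jarid2, a subunit of the PRC2.2 form, had 433.0, 429.2 and 403.0 CPM in EpiLCs, against 276.3, 269.9 and 261.3 CPM in mESCs, a 1.57-fold rise. The catalytic subunit Ezh2 fell by 0.10 on the log2 scale, with 275.0, 275.3 and 285.2 CPM in EpiLCs, against 296.2, 304.7 and 295.1 CPM in mESCs. Of 26 PRC1 subunits, 11 rose and 6 fell, with a median of 0.07. Kdm2b, which recruits a variant PRC1 to CpG islands, rose 2.47-fold, and Yaf2 rose 2.79-fold.

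The Hox genes, classical Polycomb targets that pattern the body axis, changed by cluster. Of 28 tested Hox genes, 18 rose and 6 fell, with a median log2 fold change of 3.21. That median depends on the filter, since it was 0.67 when genes with almost no counts were kept. In the HoxA cluster all 10 tested genes rose, and in the HoxB cluster 8 of 9 rose. In the HoxC cluster 4 of 9 genes passed the filter on low counts and these fell, and in the HoxD cluster 2 of 5 tested genes fell with the other 3 not called. Genes with almost no counts in 1 state passed that filter through the state where they are high, as Hoxc10 and Hoxc12 did through mESCs and Hoxb1, Hoxb5 and Hoxb6 through EpiLCs, so the counts by cluster are a description of the genes that passed. Summed over a cluster, HoxA genes had 216.6 to 244.4 CPM in EpiLCs, against 14.9 to 19.7 CPM in mESCs. HoxB genes had 91.1 to 94.1 CPM in EpiLCs, against 13 to 22.1 CPM in mESCs. HoxC genes had 2.86 to 3.57 CPM in EpiLCs, against 20.3 to 24.4 CPM in mESCs. HoxD genes had 22.9 to 23.4 CPM in EpiLCs, against 25.9 to 33.0 CPM in mESCs. The ranges did not overlap in any of the 4 clusters.

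**Figure D3:**
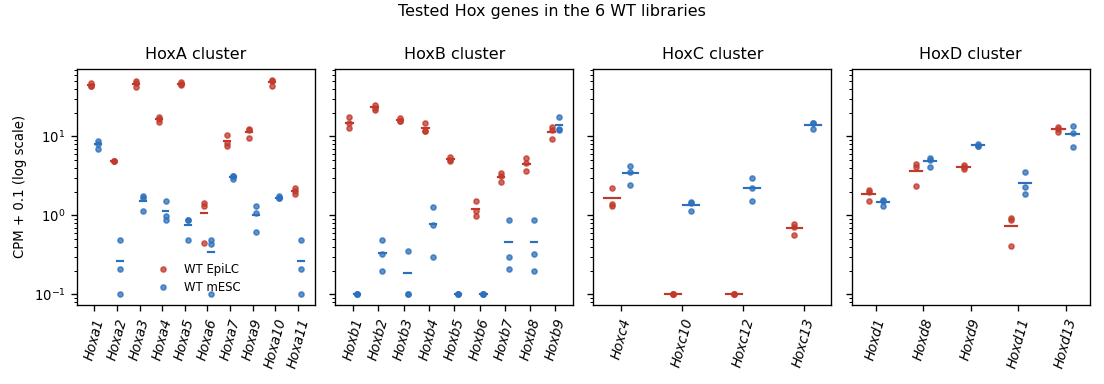
CPM + 0.1 on a log scale (y) of the 28 tested Hox genes (x) in 4 panels by cluster, with 1 point per library and a bar at the mean of 3 libraries; EpiLCs stand left of mESCs, and a point at 0.1 is a library with no count. HoxA and HoxB genes are higher in EpiLCs except Hoxb9, with overlapping points for Hoxa6, and HoxC genes are lower.

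Single Hox genes differed in level. Hoxa5 had 46.2, 48.6 and 44.6 CPM in EpiLCs, against 0.776, 0.389 and 0.771 CPM in mESCs, a 72.0-fold rise. The more posterior Hoxa10 had 50.4, 52.6 and 43.8 CPM in EpiLCs, against 1.66, 1.55 and 1.54 CPM in mESCs. Anterior and posterior members of the HoxA cluster, which lies between 52155590 and 52245810 on chromosome 6 (GRCm38), were thus both higher. Hoxb1, the most anterior HoxB gene, had 17.4, 14.6 and 12.8 CPM in EpiLCs and no count in mESCs, so it was at least 134.9-fold higher where the floor is 3 counts summed across the mESC libraries. Such floors cover counting error only. Hoxb9 was not called, at 11.4 ± 1.9 CPM in EpiLCs and 14.1 ± 3.1 CPM in mESCs. Hoxc13 had 0.669, 0.613 and 0.47 CPM in EpiLCs, against 12.5, 14.9 and 14.6 CPM in mESCs, a 24.0-fold fall. Hoxc12 had no count in EpiLCs and 2.88, 2.14 and 1.41 CPM in mESCs, at least 19.5-fold lower. Hoxd13, at the posterior end of its cluster, was not called, at 12.3 ± 0.79 CPM in EpiLCs and 10.6 ± 3.1 CPM in mESCs. Hoxa6 was called but had overlapping groups.

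Genes of later lineages were mixed, and most stayed at low levels. Of 15 tested primitive streak and early mesoderm genes, 6 rose and 4 fell, with a median log2 fold change of 0.60. Gsc, an organiser gene, had 0.334, 0.715 and 0.705 CPM in EpiLCs, against 6.54, 8.45 and 8.09 CPM in mESCs. Eomes, a T-box factor of streak and trophoblast, fell by 0.66 on the log2 scale, and Hand1 rose 16.4-fold at under 7 CPM. Of 18 endoderm genes, 10 rose and 3 fell, with a median of 1.13. Gata6, a primitive endoderm factor, had 16.8, 12.6 and 12.2 CPM in EpiLCs, against 1.33, 0.389 and 0.257 CPM in mESCs, and its exons overlap those of 1010001N08Rik. Cubn, an endocytic receptor of visceral endoderm, had 5.57, 7.25 and 6.11 CPM in EpiLCs, against 0, 0.0971 and 0 CPM in mESCs. Dab2, its adaptor, rose 9.88-fold. The endoderm factors Sox17 and Gata4 were not called, with overlapping groups, and Afp had no count in any of the 6 libraries. Summed over the endoderm list, levels were 614.9 to 640.2 CPM in EpiLCs and 667.2 to 718.4 CPM in mESCs, so the sum was lower in EpiLCs although more members rose.

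Of 9 tested neuroectoderm genes, 4 rose and 3 fell. Sox1, the earliest neural SoxB1 factor, had 171.0, 172.3 and 178.6 CPM in EpiLCs, against 20.4, 22 and 14.8 CPM in mESCs, a 9.14-fold rise. Pax6, a neural and eye factor, had 19.8, 16.1 and 18.4 CPM in EpiLCs, against 3.99, 4.57 and 6.29 CPM in mESCs. Both had separate groups. Tubb3 and Nes, a neuronal tubulin and an intermediate filament of neural progenitors, fell, with log2 fold changes of -2.34 and -0.65. Nkx2-2 had no count in the 6 libraries. The SoxB1 genes differ in direction, since Sox3 rose 8.86-fold and Sox2 fell. Per length, Sox1 averaged 93.3 ± 1.7 TPM in EpiLCs and 9.69 ± 2.0 TPM in mESCs. Sox3 averaged 69.8 ± 2.7 TPM in EpiLCs and 7.48 ± 0.87 TPM in mESCs, and Sox2 averaged 94.4 ± 7.3 TPM in EpiLCs and 303.3 ± 1.8 TPM in mESCs (SD, n = 3 each). Sox1 and Sox2 were thus within their spread of each other in EpiLCs, whereas Sox2 was far above both in mESCs.

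Of 11 tested trophoblast genes, 6 rose and 4 fell, but the list summed lower in EpiLCs. Its sum was 112.4 to 117.1 CPM in EpiLCs, against 164.3 to 168.2 CPM in mESCs. Esx1, an X-linked placental homeobox gene, had 52.8, 52.9 and 44.7 CPM in EpiLCs, against 5.10, 4.47 and 5.65 CPM in mESCs. Tfap2c and Krt8 fell, with log2 fold changes of -2.59 and -2.29. Among 26 germline genes, 16 rose and 7 fell, but this list too summed lower in EpiLCs. The germline sum was 515.2 to 524.4 CPM in EpiLCs, against 992.1 to 1014.5 CPM in mESCs. Tdrd1, a Tudor protein of the piRNA pathway, had 7.25, 7.05 and 7.05 CPM in EpiLCs, against 0.998, 0.971 and 1.03 CPM in mESCs. Mael, another piRNA gene, rose 4.57-fold, while Kit, the receptor of stem cell factor, fell 5.56-fold and Dazl, a germ cell RNA-binding protein, 1.96-fold. Of 14 2-cell-like genes, 5 rose and 1 fell; the risen ones are Zscan4 genes, whose near-identical copies can share reads, so their single values are uncertain. Zscan4c was not called without EpiLC replicate 3.

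Among markers of other cell types that a culture could hold, several had no count, while the fibroblast sum was higher in EpiLCs. Of 11 tested fibroblast and feeder markers, 6 rose and 3 fell, and their sum was 128.8 to 130.0 CPM in EpiLCs, against 56.5 to 71.5 CPM in mESCs. Col3a1, Lum and Postn, defining fibroblast genes, had no count in the 6 libraries. Of the other fibroblast genes, Dcn, Col1a2, Col5a2, Twist2 and Fbn1 rose, and Col1a1, Thy1 and Pdgfrb fell. Dcn averaged 0.475 CPM in EpiLCs and had no count in mESCs, Col1a2 averaged 1.27 CPM in EpiLCs and 0.0369 CPM in mESCs, and Col5a2 averaged 4.07 CPM in EpiLCs and 0.304 CPM in mESCs. The call of Col1a1, at 1.62 CPM in EpiLCs and 3.37 CPM in mESCs, was lost without mESC replicate 1, and that of Pdgfrb without EpiLC replicate 3. Mmp2, a matrix protease, made up much of the rise, with 50.2, 50.8 and 51.4 CPM in EpiLCs, against 4.99, 6.99 and 6.17 CPM in mESCs. The part of other cells in the result was not tested beyond these values. Of 4 tested blood and endothelial markers, only Vwf was called, at 0.669, 0.92 and 1.64 CPM in EpiLCs, against 35.7, 34.2 and 36.5 CPM in mESCs, and Hba-a1 had no count.

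**Figure D4:**
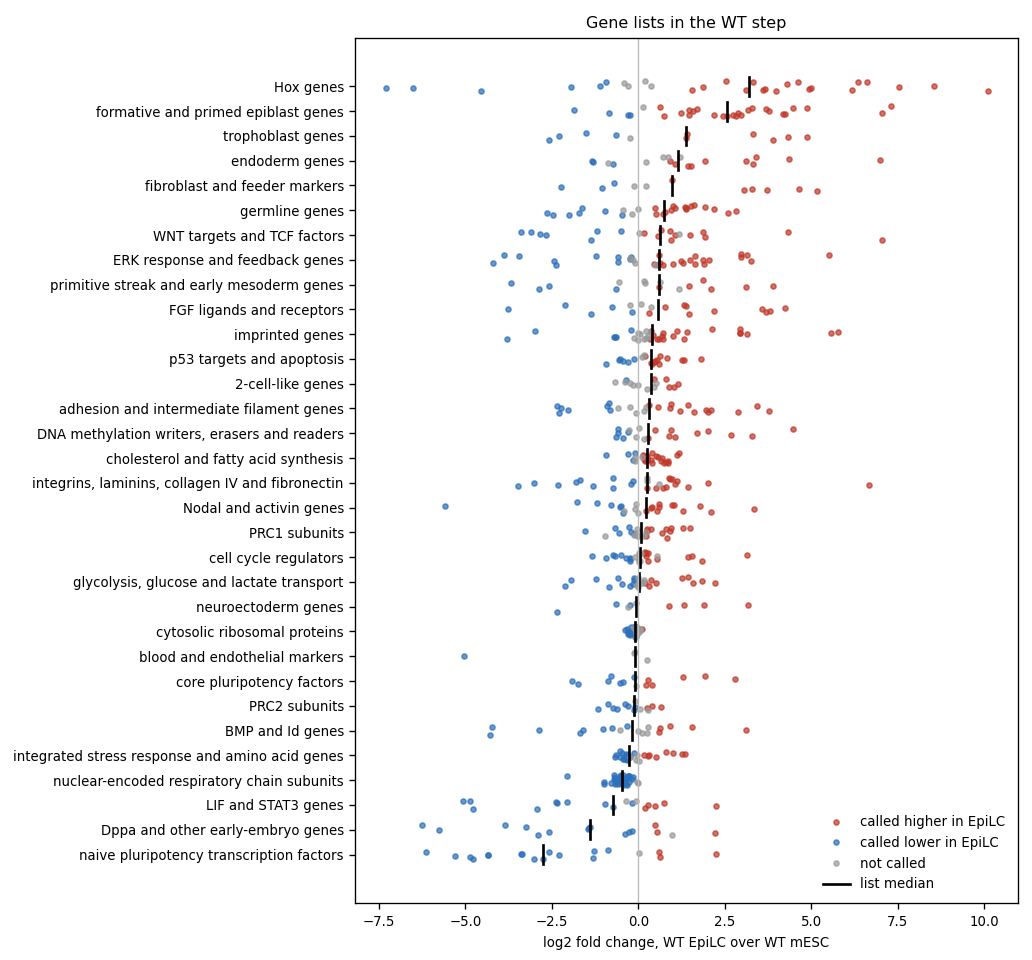
Log2 fold change, EpiLC over mESC (x), of every tested member of 32 gene lists (y), with red points called higher in EpiLCs, blue lower and grey not called, and a bar at each list's median. The medians are 3.21 for the Hox list (0.67 with no filter on low counts), 2.56 for the formative list and -2.75 for the naive factors.

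Genes were ranked by log2 fold change among those called, with separate groups and a mean of at least 2 CPM over the 6 libraries. In that ranking the largest rises were in genes with almost no counts in mESCs. The 15 ranked rises are Car4, Hoxb1, Ndnf, Gbp2, Car3, Hoxb5, Ms4a4d, Ghr, Pxdc1, Thbs1, Hoxb3, Gpm6a, Gsx1, Wnt8a and Arg1. Car4, a membrane-bound carbonic anhydrase (chromosome 11, 84957786 to 84966044), had 16.5, 16.1 and 14.4 CPM in EpiLCs and no count in mESCs, and was at least 141.8-fold higher. Ndnf, a secreted neurotrophic glycoprotein on chromosome 6, had 42.5, 44.1 and 41.7 CPM in EpiLCs, against 0.111, 0 and 0 CPM in mESCs. It rose by 9.72 ± 0.30 on the log2 scale (SE; edgeR adjusted p = 1.01e-61). Car3, a cytosolic carbonic anhydrase, Gbp2, an interferon-induced GTPase, and Ghr, the growth hormone receptor, also had no count in mESCs and were at least 46.0, 46.4 and 37.6-fold higher. Wnt8a, a WNT ligand of the epiblast and streak, had 12.8, 12.6 and 15.6 CPM in EpiLCs, against 0, 0.0971 and 0.128 CPM in mESCs. Gsx1, a homeobox gene of neural progenitors, had 16.6, 15.5 and 14.6 CPM in EpiLCs, against 0, 0 and 0.257 CPM in mESCs. Fitted fold changes of genes with no count in a group depend on the prior count. In all, 16 genes had no count in mESCs and a mean of at least 2 CPM in EpiLCs, and 5 genes, among them Apol6, Cd180, Cd248 and Hoxc12, had the reverse; these were chosen after their values were seen.

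In the same ranking, the 15 largest falls were in genes that averaged between 4.54 and 585.0 CPM in mESCs. Genes under its minimum level are outside it, such as Hoxc12 and Hoxc10, described with the Hox genes. The 15 ranked falls include Pla2g4e, Spic, Lrrc34, Jam2, Prdm14, Lrriq4, Padi2, Nkx6-3, Tdh, Crxos, Vax2os and Gjb5. Gjb5, a connexin of gap junctions, had 0.334, 0.613 and 1.06 CPM in EpiLCs, against 35.4, 34.2 and 32.0 CPM in mESCs. Among the rises, Hoxb1, Hoxb3 and Hoxb5 are neighbours on chromosome 11 (GRCm38). Lrrc34 and Lrriq4 among the falls overlap by 3363 bases on opposite strands of chromosome 3. Reads from that shared stretch cannot be told apart, while most of each gene lies outside it. Jam2, a junctional adhesion molecule, had 3.79, 3.17 and 2.58 CPM in EpiLCs, against 248.4, 243.4 and 238.2 CPM in mESCs. Spic, an Ets factor of macrophages and naive cells, had 0.334, 0 and 0 CPM in EpiLCs, against 12.6, 11.9 and 12.2 CPM in mESCs. Padi2, an arginine deiminase, fell 63.6-fold, and Pla2g4e, a phospholipase, 131.4-fold.

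Cell adhesion genes changed in both directions, and the epithelial cadherin fell by less than 2-fold. Of 25 tested adhesion and intermediate filament genes, 13 rose and 7 fell. Cdh1, E-cadherin, had 556.9, 576.3 and 523.3 CPM in EpiLCs, against 1023.4, 965.2 and 964.9 CPM in mESCs, a 1.78-fold fall. Cdh2, N-cadherin, had 35.7, 31.2 and 33.4 CPM in EpiLCs, against 4.54, 4.57 and 4.50 CPM in mESCs, a 7.36-fold rise. Per length, Cdh1 averaged 271.0 ± 14 TPM in EpiLCs and 458.0 ± 20.0 TPM in mESCs, and Cdh2 averaged 15.6 ± 1.1 TPM in EpiLCs and 2.00 ± 0.036 TPM in mESCs (SD, n = 3 each), so E-cadherin stayed far above N-cadherin in both states. Epcam and Podxl, surface proteins of the epiblast epithelium, rose 2.70-fold and 4.02-fold. Cd9, a tetraspanin of naive cells, had 92.9, 96.0 and 102.2 CPM in EpiLCs, against 477.6, 500.7 and 497.7 CPM in mESCs. Cldn4, Krt8 and Vim fell, with log2 fold changes of -2.24, -2.29 and -0.91.

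Among 25 tested integrin and basement membrane genes, 12 rose and 10 fell. Itga3, an integrin that binds laminin, had 173.3, 178.3 and 174.4 CPM in EpiLCs, against 46.9, 42.6 and 42.0 CPM in mESCs. Lama5, a laminin chain of the embryonic basement membrane, rose 1.96-fold, and Lama1, the chain it is exchanged with, fell 8.10-fold, with 12.2, 13.8 and 15 CPM in EpiLCs, against 118.3, 111.2 and 102.6 CPM in mESCs. Fn1, fibronectin, fell 2.47-fold, with 542.6, 564.2 and 515.9 CPM in EpiLCs, which were plated on fibronectin, against 1388.7, 1381.1 and 1239.2 CPM in mESCs. Nid1, which links laminin to collagen, fell 11.3-fold, and its paralogue Nid2 fell by 0.17 on the log2 scale. The calls of Lama4 and Lamb3, both below 3 CPM in every library, were each lost when any of several single libraries was left out, EpiLC replicates 1 and 3 and mESC replicate 2 among them.

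Metabolic genes moved in isoforms and in small steps. Of 26 glycolysis and transport genes, 9 rose and 10 fell, with a median log2 fold change of 0.01. Slc2a1, the glucose transporter Glut1, had 447.1, 470.0 and 442.5 CPM in EpiLCs, against 157.9, 145.9 and 148.0 CPM in mESCs, a 3.01-fold rise, while Slc2a3, Glut3, fell 1.39-fold. The phosphofructokinase isoforms moved apart, since Pfkl and Pfkm rose 2.38-fold and 2.70-fold and Pfkp fell 4.32-fold. Per length, Pfkp averaged 39.6 ± 3.7 TPM in EpiLCs and 162.4 ± 1.0 TPM in mESCs, and Pfkl averaged 102.9 ± 5.0 TPM in EpiLCs and 40.9 ± 2.2 TPM in mESCs (SD, n = 3 each), so the leading isoform differed between the states. Exons of Pfkp overlap those of Pitrm1. Hk1, a hexokinase, fell 3.91-fold and Hk2 1.80-fold. Slc16a3, a lactate exporter, and Pdk1, which limits entry of pyruvate into mitochondria, rose 4.62-fold and 3.60-fold.

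The nuclear-encoded respiratory chain was the most uniform list. Of 36 tested subunits, 34 fell and the other 2 were not called, but only 2 of the falls passed 2-fold, and the median log2 fold change was -0.48. Cox5a, a subunit of cytochrome oxidase, had 126.9, 123.4 and 134.0 CPM in EpiLCs, against 241.1, 251.3 and 271.8 CPM in mESCs. Sdhb, the iron-sulphur subunit of succinate dehydrogenase, had 64.7, 74.2 and 79.3 CPM in EpiLCs, against 147.3, 142.6 and 146.6 CPM in mESCs, a 2.00-fold fall. Cox7a1, a tissue-specific isoform, fell 4.14-fold at a low level. Among 30 cholesterol and fatty acid genes, 23 rose and 4 fell, again by small steps, with a median of 0.24. Fasn, fatty acid synthase, had 2062.9, 2139.6 and 1949.7 CPM in EpiLCs, against 1204.8, 1157.5 and 1080.3 CPM in mESCs, a 1.79-fold rise. Acaca, which supplies it with malonyl-CoA, rose 2.26-fold, and Hmgcs1, an early enzyme of cholesterol synthesis, 1.78-fold.

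Of 28 integrated stress response and amino acid genes, 16 fell and 8 rose, with a median log2 fold change of -0.28. Asns, asparagine synthetase, fell 1.57-fold, whereas Chac1 and Ddit4 rose 2.54-fold and 2.41-fold. Of 32 cytosolic ribosomal protein genes, 21 fell and 1 rose, all by less than 2-fold, with a median of -0.10. Without mESC replicate 3, 13 fell. Among 28 cell cycle regulators, 11 rose and 9 fell. Ccnd2, a D-type cyclin, rose 3.63-fold and Ccnd3 fell 2.54-fold, and Cdkn1a, the inhibitor p21, fell 1.91-fold. Of 20 p53 targets and apoptosis genes, 12 rose and 6 fell, with Pmaip1, the death factor Noxa, 3.51-fold higher. Reads of overlapping exons cannot be told apart where the strand used in counting is unknown, which also touches Ccnd2, Ccnd3, Eed, Fn1, Gadd45a, Gbp2, Hk1, Kdm2b, Mest, Mtf2, Ncoa3, Nid2, Padi2, Pfkm, Tcf7l1 and Zfp296.

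Imprinted genes were higher in EpiLCs more often than lower. Of 34 tested, 19 rose and 6 fell, with a median log2 fold change of 0.39. Peg10, a retrotransposon-derived gene expressed from the paternal allele, had 3045.9, 3046.4 and 2894.4 CPM in EpiLCs, against 59.6, 56.2 and 49.1 CPM in mESCs (log2 fold change 5.76 ± 0.05, SE; edgeR adjusted p = 1.77e-106). Sgce, its divergent neighbour in the same imprinted region, had 19.7, 19.7 and 19.6 CPM in EpiLCs, against 1.44, 1.75 and 4.88 CPM in mESCs. Both were higher in every EpiLC library. H19 and Igf2, an imprinted non-coding RNA and growth factor of 1 locus, rose 49.1-fold and 7.7-fold at under 10 CPM, and exons of Igf2 overlap those of Igf2os and exons of H19 those of Mir675. Cdkn1c, a growth-limiting cell cycle inhibitor, rose 8.84-fold, and Mest 2.48-fold. Plagl1, a zinc-finger regulator of an imprinted network, fell, with 17.3, 17.6 and 16.6 CPM in EpiLCs, against 136.8, 132.7 and 136.6 CPM in mESCs.

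Hairpin rows of the miR-290 cluster, the main microRNAs of naive mouse cells, were few in counts and lower in EpiLCs. The rows were chosen after their values were seen. Which transcripts their reads come from was not tested, and the counts are not taken as levels of mature microRNAs. Mature 3p sequences are shown for 5 members and for 2 members of the miR-302 cluster, which is known to follow it in the epiblast, to show which members share a seed and which do not. The sequences are from RefSeq, build GRCm38.p6, 5′ to 3′, with the seed (bases 2 to 8) in capitals.
mmu-miR-291a-3p: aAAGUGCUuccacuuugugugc
mmu-miR-294-3p: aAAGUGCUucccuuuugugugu
mmu-miR-295-3p: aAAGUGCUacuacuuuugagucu
mmu-miR-291b-3p: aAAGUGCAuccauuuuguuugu
mmu-miR-293-3p: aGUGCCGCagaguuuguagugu
mmu-miR-302b-3p: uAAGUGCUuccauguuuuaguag
mmu-miR-302d-3p: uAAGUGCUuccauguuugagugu
The seed AAGUGCU is shared by miR-291a, miR-294, miR-295, miR-302b and miR-302d, that of miR-291b differs in its last base, and that of miR-293 is another. Summed over 9 hairpin rows of the miR-290 cluster, the libraries held 45, 40 and 29 counts in EpiLCs, against 82, 167 and 138 counts in mESCs. Of these, 4 rows passed the filter, which they could do through the mESC libraries where counts are higher, so their common direction is no result. They had log2 fold changes from -1.26 for Mir293 to -1.95 for Mir291b (edgeR adjusted p from 0.00787 to 7.11e-05). The Mir295 row had overlapping groups, and exons of all 4 rows overlap those of Nlrp12. The 5 rows of the miR-302 cluster held 3, 0 and 0 counts in EpiLCs, against 6, 14 and 2 counts in mESCs, too few to test.

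The step was set beside the same step in cells with mutant EPOP by the difference of the log2 fold changes, mutant step minus WT step. Column names of the mutant libraries use an abbreviation absent from the labels; they were taken as mutant because the labels name only WT and mutant EPOP. The difference was called for 1351 genes (9.73%), with 650 positive (4.68%) and 701 negative (5.05%). In the mutant step 9155 genes (66.0%) were called, and 7395 genes were called in both steps in the same direction, which is 85.0% of the WT calls and 80.8% of the mutant calls. Another 51 were called in opposite directions. The difference was under 0.5 on the log2 scale for 80.9% of genes, and across genes, which are not independent replicates, the steps correlated at r = 0.919.

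**Figure D5:**
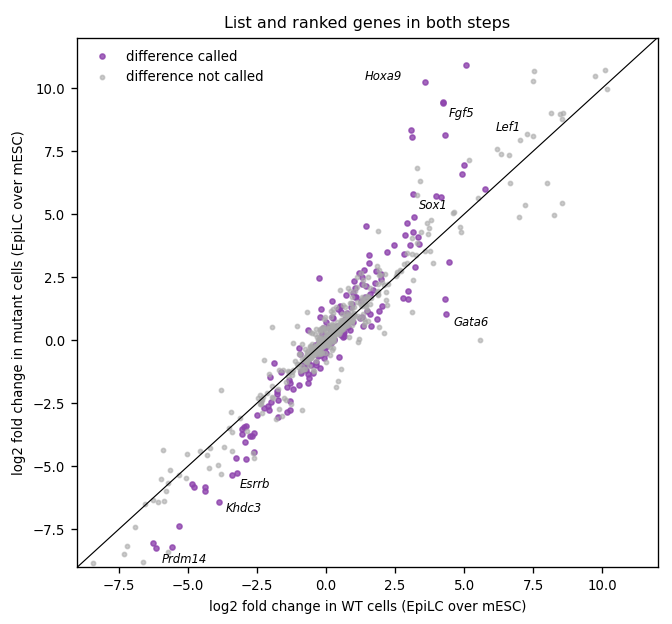
Log2 fold change (EpiLC over mESC) in mutant cells (y) against that in WT cells (x) for 692 list and ranked genes, with a line of equality; purple points are the 173 genes whose difference between the steps was called. Esrrb, Khdc3 and Prdm14 lie below the line and Sox1, Fgf5 and Hoxa9 above it.

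Among the 22 state markers the difference was called for 15, and among the 30 ranked rises and falls for 2, Jam2 and Prdm14. Many ranked genes had almost no counts in 1 state, which limits the test for a difference, so these counts are not compared. The naive markers called for a difference fell further in mutant cells. Esrrb had a log2 fold change of -5.36 in mutant cells and -3.38 in WT cells, with a difference of -1.98 ± 0.08 (SE; edgeR adjusted p = 3.16e-48). Zfp42 had a log2 fold change of -3.80 in mutant cells and -2.75 in WT cells. Nanog had nearly the same fall in each, -2.36 in mutant cells and -2.31 in WT cells, and its difference was -0.05 ± 0.06 (SE). Of the rising markers, Pou3f1, Sox1, Sox3, Dnmt3b and Fgf5 rose further in mutant cells, and Zic2 rose less. The mutant mESCs had no count of Fgf5, so its fitted difference depends on the prior count. For Sox1 the log2 fold change was 4.90 in mutant cells and 3.17 in WT cells. Lef1, Otx2 and Dnmt3a were not called for a difference, with values of 0.89 ± 0.39, 0.14 ± 0.33 and 0.11 ± 0.07 (SE).

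The authors' deposited table for this comparison lists 9338 genes at their adjusted p under 0.05, with 4750 higher in EpiLCs and 4588 lower, and across genes its log2 values and the ones fitted here had r = 1.0000. Of these genes in the authors' deposited table, 8510 are among the 8697 called here, and 187 genes were called here only.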

How the data were processed

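RNA was sequenced in 12 libraries, 3 for each of WT EpiLCs, WT mESCs, mutant EpiLCs and mutant mESCs. The authors deposited 1 table of raw counts per gene with their own values beside them, made with FastQC 0.11.2, STAR 2.5.3a, featureCounts (Subread) and edgeR 3.18.1 on mm10, per the submitters' processing notes. The sources used here give no strand setting for the counting. Per the file headers the authors deposited TPM, scaled by gene length and library total, and a CPM score scaled to an effective library size. The authors also deposited log2 fold changes with p-values and false discovery rates for their comparisons. Of 19656 features, 26 had a date in place of a symbol (0.182 to 0.212% of counts in a library) and were left out.

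After a filter on low counts (filterByExpr) and TMM scaling, with factors between 0.984 and 1.01, genes were fitted over all 12 libraries in edgeR 4.0.16 under R 4.3.3. The quasi-likelihood test had 8 residual degrees of freedom, with Benjamini-Hochberg adjustment over 13879 genes and calls at 0.05. The procedure was tested on simulated data. CPM, means and SDs were computed from the counts and TMM sizes, and levels between genes are compared in deposited TPM only. Alternatives were RLE and upper quartile scaling, DESeq2 1.42.0, voom in limma 3.58.1, other filters, WT libraries alone, a replicate block, a 2-fold threshold and leaving out each library. Gene symbols were matched to the GENCODE mouse annotation, with 18587 genes matched by symbol, 784 by a RefSeq synonym and 259 unmatched. Coordinates and exon overlaps came from GENCODE, and sequences from RefSeq.

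The comparison, the 34 lists and the tests were chosen with earlier results of these data known. Named genes are the 15 largest rises and 15 largest falls among called genes with separate groups and a mean of at least 2 CPM, the state markers, the related family members, up to 6 called members of each list in its main direction and 4 in the other, and the 6 largest differences between steps each way. Other genes named from the lists were chosen after their values were seen. Lists carry no test of their own. Some genes of the lists and rankings are not reported here.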

Additional observations from a re-analysis of the deposited data

Results flagged for a closer look

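The step differed between mutant and WT cells for 26 of 61 genes compared, by the interaction test in edgeR (adjusted p under 0.05). The 61 include the 6 largest called differences each way, picked from these same values, so the count is not a rate. Over all genes tested the share called was 9.73%. Values are the log2 fold change in mutant cells minus that in WT cells. Naive genes that fell further in mutant cells were Prdm14 (difference -2.1), Esrrb (difference -1.98), Tbx3 (difference -1.61), Nr0b1 (difference -1.45), Zfp42 (difference -1.05), Tfcp2l1 (difference -1.03), Klf4 (difference -0.84) and Klf2 (difference -0.49). Sox2, a marker shared by both states, also fell further (difference -0.25). So did Jam2 (difference -1.77), Khdc3 (difference -2.55) and Inhbb (difference -2.6). Tbx3 averaged 5.16 CPM in mutant EpiLCs and 324.8 CPM in mutant mESCs. Nr0b1 averaged 18 CPM in mutant EpiLCs and 122.8 CPM in mutant mESCs.

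State markers with a larger rise in mutant cells were the epiblast genes Pou3f1 (difference 1.49), Sox3 (difference 1.12) and Dnmt3b (difference 0.32). Sox1, also in the neuroectoderm list, rose further too (difference 1.73), while Zic2 (difference -0.55) rose less. Gata6, the primitive endoderm factor, had a difference of -3.29 ± 0.70 (SE), with 1.13 CPM in mutant EpiLCs and 0.549 CPM in mutant mESCs. Ccdc141 (difference -2.07) and Slc15a1 (difference -2.05) were the other negative ones. Hoxa9 (difference 6.64), Cnr1 (difference 5.84), Fgf5 (difference 5.23), Fat3 (difference 5.23), Jakmip2 (difference 5.14) and Kcna3 (difference 4.92) had no count in mutant mESCs, so the size of these fitted values depends on the prior count.

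Prdm14 lost its call for the difference in DESeq2 (adjusted p = 0.0642) and voom (adjusted p = 0.136), and without any of WT EpiLC replicate 2, mutant EpiLC replicates 1 and 3 or mutant mESC replicate 1. Slc15a1 lost it in voom (adjusted p = 0.113) and without WT EpiLC replicate 3 or mutant EpiLC replicate 1, Ccdc141 without mutant EpiLC replicate 1, and Kcna3 without mutant mESC replicate 2. In the edgeR test against a 2-fold change, most of the 26 genes lost the call. Among them were Gata6 (adjusted p = 0.0669), Fgf5 (adjusted p = 0.381) and Jam2 (adjusted p = 0.581). Esrrb, Tbx3, Nr0b1, Sox1, Hoxa9, Cnr1 and Khdc3 kept it.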

How the results depend on the processing

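Counts of called genes stayed within 1.5 times of 8697 for the step and 1351 for the difference under every scaling, filter and tool run, from 8298 in DESeq2 to 8905 with no filter on low counts for the step. Leaving out 1 WT library gave 8114 to 8346 genes for the step. For the difference, leaving out 1 library of any group gave 1133 to 1341. The exception is a test against a 2-fold change, with 1905 genes called, 1052 higher and 853 lower, and 19 for the difference. Of 4879 values for named genes, 4715 kept their direction and side of the threshold, 158 were no longer called, 4 became called and 2 changed sign. The changes of sign were in Esrra, not called at 0.02. Esrra was between -0.03 (without mESC replicate 2 or EpiLC replicate 3) and 0.08 with 1 WT library left out. Tet1 gained a call in voom, with no filter, without mESC replicate 3 and without EpiLC replicate 1. Of 1530 list values 107 moved, and the median of the neuroectoderm list changed sign. That median was -0.07 in the fit used, -0.27 to 0.12 with 1 WT library left out and 0.49 with no filter on low counts. The largest shift of the median gene with another scaling was under 0.1 (log2).

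With the replicate block, 8685 genes were called for the step (4391 higher, 4294 lower) and 1401 for the difference. The labels do not say whether replicate numbers pair the libraries. Deviations of same-numbered WT libraries correlated at -0.023, -0.021 and 0.016. These values show no shared effect, but cannot tell whether same-numbered libraries were handled together. Depth limits genes with few counts, above all those with no count in 1 state.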
